A study of Mus musculus with 14 samples.

Results

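The genes described here encode the DNA replication machinery of S phase and a few regulators of the G1/S transition. The 38 members were taken by symbol from the deposited gene count table of mouse lung tumor nodules, out of 55291 symbols, and all 38 passed the low-count filter that left 17933 genes. They fall into 6 roles: origin licensing (10 genes), helicase activation (5), polymerases and primase (5), the sliding clamp, its loader and lagging-strand factors (8), nucleotide supply (5), and chromatin assembly and S-phase control (5). All libraries came from lung tumor nodules, snap-frozen, of C57BL/6 mice whose genotype is HER2 Exon20YVMA, an oncogenic insertion in the kinase domain of the receptor HER2, so the allele is shared by the controls. The groups were vehicle (n = 2), mobocertinib (n = 3), T-DM1 (n = 3), the combination of mobocertinib and T-DM1 (n = 3), and nodules with acquired resistance to mobocertinib given alone (n = 3), all under long-term dosing. Mobocertinib is a small-molecule inhibitor of EGFR and HER2 kinases, and T-DM1 is a HER2 antibody coupled to a microtubule poison. The sources used here do not give the promoter that drives the allele, the ages or the doses. The labels do not say that each library is a separate animal, so p-values reflect no more than the spread among these libraries, which may be technical. With 2 vehicle libraries, every comparison with vehicle rests on a pair of controls.

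In G1 the origin recognition complex, with Cdc6 and Cdt1, loads the Mcm2-7 helicase onto DNA, a step called licensing. At the G1/S transition cyclin-dependent kinases release E2F transcription factors from the retinoblastoma protein, and E2F sites lie in the promoters of many replication genes. Cdc45 and the GINS complex then turn Mcm2-7 into the active helicase, primase and the polymerases copy DNA on the Pcna clamp loaded by replication factor C, and ribonucleotide reductase and thymidine enzymes supply nucleotides.

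RefSeq promoter windows (build GRCm38.p6, 250 bases before to 50 after the start site) matched 32 of the 38 members by symbol, all but Mcm4, Gins1, Gins2, Gins4, Pole and Rfc2. The windows were searched on both strands for the E2F letters TTTCCCGC, TTTCGCGC, TTTGCCGC and TTTGGCGC, whose matches can overlap one another. They were found in 10 of 32 members (31.2%), against 2.32% of all 27025 windows, and those 10 were Orc1, Cdc6, Cdt1, Mcm3, Mcm5, Mcm6, Mcm7, Pola1, Pold1 and Rfc3. Of 9 licensing genes with a window, 7 held the letters, whereas 0 of 5 nucleotide supply genes and 0 of 5 genes of chromatin assembly and S-phase control did. The letters CCAAT were in 59.4% of members' windows and 37.9% of all windows. The CHR letters TTTGAA and TTCGAA, known from promoters of mitosis genes, were in 15.6% of members' windows, 19.4% of all windows and 78.9% of the windows of 19 mitosis genes. A match is a description of letters and not a bound site. Only exact letters were counted, so a window without them can still hold a variant site. The windows of Cdc6, Mcm7, Dut and E2f1 lie wholly inside the gene as annotated by GENCODE. Those of Mcm5, Fen1 and Lig1 end before its first base. Promoters at other start sites were not searched, so the counts by role are limited to these windows. The 6 windows below are shown because Mcm3, Mcm5, Mcm6, Mcm7 and Rfc3 hold 2 or 3 matches each (capitals mark the E2F letters), while that of Tk1, whose log2 fold change was -3.10 in mobocertinib against vehicle, holds none. For Mcm7 the first of 2 listed windows is shown. They lie at chr1:20820263-20820562, minus strand for Mcm3, chr8:75109259-75109558, plus strand for Mcm5, chr1:128359656-128359955, minus strand for Mcm6, chr5:138171834-138172133, minus strand for Mcm7, chr5:151651159-151651458, minus strand for Rfc3, and chr11:117825965-117826264, minus strand for Tk1, each written 5′ to 3′ on the gene's strand.
Mcm3: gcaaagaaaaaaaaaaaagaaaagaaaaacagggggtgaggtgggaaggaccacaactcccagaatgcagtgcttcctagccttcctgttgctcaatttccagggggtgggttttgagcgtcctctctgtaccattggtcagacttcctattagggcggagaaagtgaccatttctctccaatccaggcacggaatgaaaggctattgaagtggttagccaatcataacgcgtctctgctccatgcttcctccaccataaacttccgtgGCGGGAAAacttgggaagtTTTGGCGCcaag
Mcm5: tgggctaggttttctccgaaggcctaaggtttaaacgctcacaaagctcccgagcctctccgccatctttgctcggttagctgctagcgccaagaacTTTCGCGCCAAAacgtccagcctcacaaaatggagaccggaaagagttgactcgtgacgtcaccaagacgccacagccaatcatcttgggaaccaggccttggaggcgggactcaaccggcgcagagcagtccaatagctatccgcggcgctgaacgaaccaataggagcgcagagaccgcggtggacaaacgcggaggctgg
Mcm6: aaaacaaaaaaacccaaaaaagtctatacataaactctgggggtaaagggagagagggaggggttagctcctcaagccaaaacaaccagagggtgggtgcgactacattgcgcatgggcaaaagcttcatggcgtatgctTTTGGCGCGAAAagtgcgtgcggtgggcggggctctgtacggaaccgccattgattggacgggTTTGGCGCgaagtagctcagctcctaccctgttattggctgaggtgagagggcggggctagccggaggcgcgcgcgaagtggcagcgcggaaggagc
Mcm7: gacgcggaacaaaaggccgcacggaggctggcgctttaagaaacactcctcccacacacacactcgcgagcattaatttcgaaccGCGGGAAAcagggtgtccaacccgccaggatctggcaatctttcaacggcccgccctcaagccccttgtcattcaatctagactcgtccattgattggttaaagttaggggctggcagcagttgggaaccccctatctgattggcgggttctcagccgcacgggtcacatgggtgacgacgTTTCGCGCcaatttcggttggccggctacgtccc
Rfc3: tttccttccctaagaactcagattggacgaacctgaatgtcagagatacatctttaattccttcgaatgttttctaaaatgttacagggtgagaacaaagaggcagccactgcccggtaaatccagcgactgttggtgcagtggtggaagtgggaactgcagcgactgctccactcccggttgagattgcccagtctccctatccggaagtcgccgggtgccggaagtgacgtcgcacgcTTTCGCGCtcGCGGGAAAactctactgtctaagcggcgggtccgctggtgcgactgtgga
Tk1: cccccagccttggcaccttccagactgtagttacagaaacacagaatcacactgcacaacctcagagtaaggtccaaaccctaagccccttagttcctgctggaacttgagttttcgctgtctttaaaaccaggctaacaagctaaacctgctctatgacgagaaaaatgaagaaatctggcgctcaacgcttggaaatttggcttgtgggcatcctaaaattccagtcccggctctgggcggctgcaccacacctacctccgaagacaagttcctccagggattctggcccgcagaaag

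In Mcm5 and Mcm6 a pair of matches on opposite strands overlaps, so that 1 capital run carries both. In Mcm5 these begin at positions -153 and -149 from the start site, and in Mcm6 at -110 and -106, with a separate match at -47. In Mcm3 both matches lie after the start site, at 20 and 39. The 10 members with E2F letters and the 22 without had near medians of log2 fold change in mobocertinib against vehicle (-1.03 and -1.06) and in T-DM1 against mobocertinib (0.56 and 0.44). This is a description with no test, and the grouping carries the limits of the windows and letters given above.

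Library totals ran from 1.93e+07 to 3.13e+07 counts. The members made up 0.0400 to 0.0786% of counts, and the raw count of a member in a library ran from 2 (Orc1) to 1668. Both vehicle libraries differed from the remaining 12 in RNA composition: mRNAs under 1000 bases took 30.8 and 36.5% of their counts against 8.14 to 14.3% elsewhere, and the share of ribosomal protein genes was 19.4 and 20.1%, against 3.38 to 7.18%. Their TMM scaling factors were 0.677 and 0.542 against 0.988 to 1.23. As a share of raw counts the members were not set apart in vehicle (0.0576 and 0.0432%). The direction of the members against vehicle therefore depends on the scaling, and each such result below is given with that dependence. Summed levels of 9 alveolar type 2 cell markers, the surfactant-making epithelium of the lung, were 143256 and 212003 CPM in vehicle and 10072 to 80355 elsewhere. Most of the vehicle sum was Sftpc (mean 151319 CPM). The mean of log2 CPM over the 9, centered gene by gene, was 1.42 and 1.29 in vehicle, 1.44 in T-DM1 2 and 1.18 in resistant 2. Against vehicle 1 of the 9 was called lower in mobocertinib, 1 in T-DM1, 2 in the combination and 1 in the resistant nodules, beside 14.9 to 19% of all genes. Summed levels of 8 alveolar macrophage markers were 8607 and 9744 CPM in vehicle and 453 to 3577 elsewhere, with 3, 4, 4 and 3 called lower in the same order. Those of 5 neutrophil markers were 452 and 573 CPM in vehicle and 14.2 to 279 elsewhere, with 2, 2, 1 and 3 called lower in that order. Those of 8 endothelial markers were 252 and 372 CPM in vehicle and 397 to 988 elsewhere. Of these 8, 5 were called higher in each of the 4 comparisons with vehicle, beside 16.7 to 22% of all genes. In the resistant nodules 1 was called lower (19% of all genes). With a correction for transcript length and GC content, the endothelial markers called higher were 4, 2, 3 and 5, and the neutrophil markers called lower 0, 1, 0 and 2. In resistant 1, 2 and 3 the sums of 5 smooth muscle markers were 1824, 287 and 294 CPM (180 and 279 in vehicle, 4 called higher). Those of 7 fibroblast markers were 3544, 500 and 345 CPM (279 and 288 in vehicle, 3 called higher), beside 22% of all genes called higher. In both lists the high end was resistant 1 alone. With the same correction 1 smooth muscle marker and 1 fibroblast marker were called higher. In bulk tissue fewer cells of a type and less RNA per cell cannot be told apart, and the part of cell makeup in the results below was not tested.

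**Figure D1:**
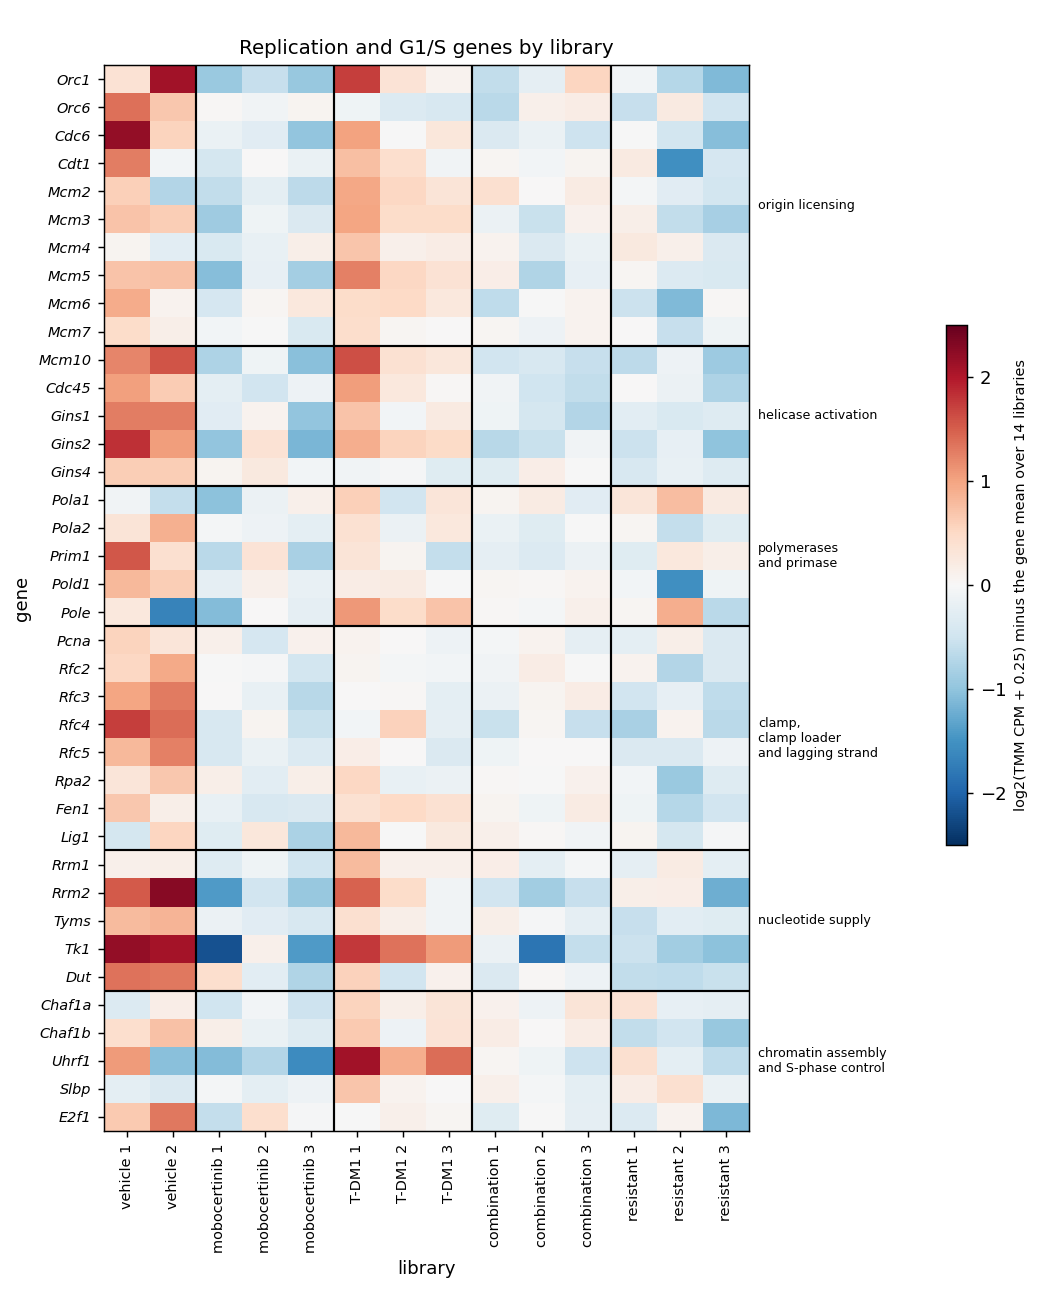
Heat map of the 38 genes (vertical axis, ordered by role) in 14 libraries (horizontal axis, by group); color is log2 TMM-normalized CPM, centered on each gene's mean. Most genes are above their mean in the vehicle libraries and in T-DM1 1, and Tk1, Orc1, Rrm2 and Uhrf1 show wide spreads.

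Levels differed among the 5 groups for 20 of the 38 members at an adjusted p below 0.05 (edgeR quasi-likelihood F-test, Benjamini-Hochberg over all genes), beside 29.4% of all genes tested. With TMM scaling, 18 members fell and 0 rose in mobocertinib against vehicle, where 16.1% of all genes fell. In T-DM1 against vehicle 7 fell and 0 rose (14.9% of all genes fell), in the combination 18 fell and 0 rose (17.4%), and in the resistant nodules 23 fell and 0 rose (19%). The median log2 fold changes of the members were -1.01, -0.45, -0.78 and -1.06 in that order, where those of all genes were 0.09, 0.18, 0.08 and 0.18. These 4 comparisons share the same 2 vehicle libraries and are not independent of each other.

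The sign of these medians turned with the scaling. Scaled to library totals alone, an alternative added after the data were seen, the members' medians were -0.16, 0.36, 0.046 and -0.28, while the medians of all genes were 0.93, 0.97, 0.92 and 1.01. On the authors' TPM values the members' medians were 0.32, 0.85, 0.56 and 0.42 beside 1.11, 1.17, 1.18 and 1.27 for all genes. Taken relative to the median of all genes, the members lay below 0 in each scaling and tool run, at -1.12 to -0.78 in mobocertinib, -0.67 to -0.32 in T-DM1, -0.91 to -0.57 in the combination and -1.29 to -0.84 in the resistant nodules on the log2 scale. With a correction for transcript length and GC content, 22 members fell in mobocertinib (14.5% of all genes did), 10 in T-DM1 (15.8%), 17 in the combination (15%) and 25 in the resistant nodules (18.5%), where 1 member rose (11.3% of all genes). In the paragraphs on each role, "fell" means a call with TMM scaling and is not a statement about library totals or TPM.

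**Figure D2:**
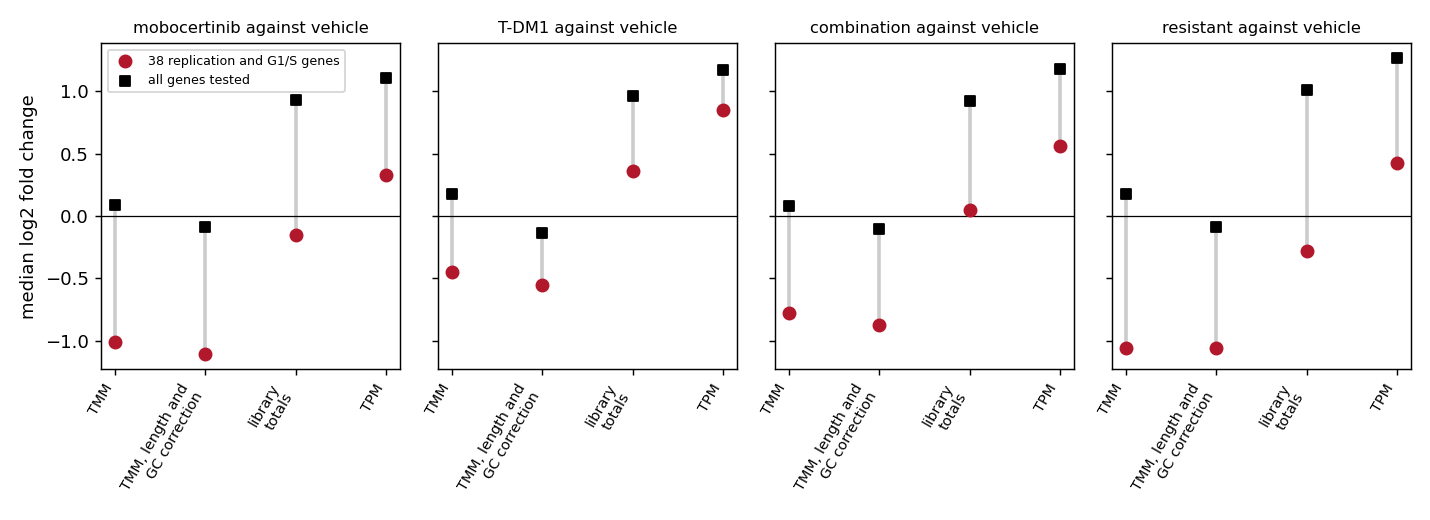
Median log2 fold change against vehicle (vertical axis) of the 38 genes (red circles) and of all genes tested (black squares) under 4 scalings (horizontal axis), 1 panel per comparison. The red circle is below the black square in all 16 pairs, while its own sign turns between TMM and TPM in every panel.

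Among the origin licensing genes, Orc1 and Orc6 (origin recognition complex), Cdc6 (helicase loader), Mcm3 and Mcm5 (helicase subunits) fell in mobocertinib against vehicle with TMM scaling, 5 of 10 genes, and Cdt1, Mcm2, Mcm4, Mcm6 and Mcm7 did not pass. In T-DM1 against vehicle 1 of 10 passed, Orc6. Mcm5 (chr8:75109569-75128439) was at 17.2 and 17.4 CPM in vehicle, 4.83, 8.93 and 5.69 in mobocertinib, 25.4, 15.1 and 13.4 in T-DM1, 11.8, 6.10 and 9.03 in the combination and 10.7, 8.14 and 7.93 in the resistant nodules. All mobocertinib libraries lay below all vehicle and T-DM1 libraries. Its log2 fold change was -1.41 ± 0.378 (SE, adjusted p = 0.0135, edgeR) in mobocertinib against vehicle and 0.05 ± 0.382 (adjusted p = 0.923) in T-DM1 against vehicle. Orc6 (chr8:85299632-85308278), the smallest subunit of the recognition complex, behaved otherwise: it was at 38.4 and 23.6 CPM in vehicle and 9.05 to 17.2 in all other libraries. Its log2 fold change against vehicle was -1.07 ± 0.333 in mobocertinib, -1.37 ± 0.333 in T-DM1, -1.16 ± 0.333 in the combination and -1.31 ± 0.333 in the resistant nodules (adjusted p from 0.00773 to 0.0261, edgeR). Mcm4, a further helicase subunit, had log2 fold changes of -0.04, 0.45, -0.05 and 0.12 against vehicle in the same order of groups, and none passed. Cdc6 and Orc1 had few counts and differed between the vehicle libraries, at 11 and 3.34 CPM for Cdc6 and 0.720 and 2.97 CPM for Orc1.

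The helicase activation genes had the lowest role median against vehicle in the combination, -1.83, where 5 of 5 fell, and 3 fell in mobocertinib, 1 in T-DM1 and 4 in the resistant nodules. Gins2 (chr8:120578633-120589304), a GINS subunit, was at 19.6 and 11.1 CPM in vehicle, 2.54, 6.90 and 2.27 in mobocertinib, 10.2, 7.93 and 7.54 in T-DM1, 3.21, 3.54 and 5.01 in the combination and 3.60, 4.57 and 2.52 in the resistant nodules. In CPM the T-DM1 libraries were between vehicle and the other groups, without overlap with either. On TPM Gins2 was at 10.8, 13.5 and 11.8 in T-DM1, which overlapped mobocertinib (12.7, 14.9 and 10.4), the combination and the resistant nodules. Its log2 fold change was -1.97 ± 0.498 in mobocertinib (adjusted p = 0.01, edgeR), -1.97 ± 0.498 in the combination (0.00938) and -2.11 ± 0.500 in the resistant nodules (0.00531), and -0.85 ± 0.494 in T-DM1 (0.202). Exons of Gins2 share 67.3% of their bases with Gse1, and the sources used here do not say whether counting was by strand, so its counts are uncertain. Mcm10 (chr2:4989714-5012791), which helps to start the helicase and has no shared exon bases, was at 3.30 and 4.31 CPM in vehicle, 0.648, 1.18 and 0.498 in mobocertinib, 4.45, 1.73 and 1.61 in T-DM1, 0.853, 0.906 and 0.774 in the combination and 0.728, 1.16 and 0.566 in the resistant nodules. T-DM1 1 stood at the vehicle level and the other T-DM1 libraries below it. Gins4, a further GINS subunit, fell in T-DM1 (-0.76 ± 0.202), the combination (-0.66 ± 0.202) and the resistant nodules (-0.92 ± 0.202), and was at -0.53 ± 0.202 in mobocertinib, which did not pass.

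Of the polymerases and primase, Prim1, the catalytic primase subunit, fell in mobocertinib and the combination, Pola2, the regulatory subunit of polymerase alpha, in the combination and the resistant nodules, and Pold1, the catalytic subunit of polymerase delta, in the resistant nodules. None of the 5 passed in T-DM1 against vehicle, and 0 of 5 passed the test over all groups. Prim1 (chr10:128015168-128030037) was at 20.0 and 8.84 CPM in vehicle, so that the vehicle libraries differed from each other by more than the lower one did from most treated libraries (3.66 to 8.45). Pola2 (chr19:5940542-5964202) was at 16 and 23.8 CPM in vehicle, 12.4, 11.7 and 10.7 in mobocertinib, 16.6, 11.5 and 15.4 in T-DM1, 11.3, 10.3 and 12.7 in the combination and 13.2, 8.34 and 10.3 in the resistant nodules. Pola1 and Pole, the catalytic subunits of polymerases alpha and epsilon, did not pass in any comparison, with log2 fold changes against vehicle of 0.05 to 0.81 and 0.03 to 1.28.

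The clamp loader genes fell in each comparison with vehicle. Rfc2, Rfc3, Rfc4 and Rfc5, the small subunits of replication factor C, were called lower in all 4, as were Orc6 and Dut among the other members. Rfc3 (chr5:151642756-151651242) was at 27.3 and 34.2 CPM in vehicle, 13.8, 12 and 8.32 in mobocertinib, 13.8, 13.9 and 11.6 in T-DM1, 12.3, 14.3 and 15.5 in the combination and 9.68, 11.8 and 8.75 in the resistant nodules. All 12 treated and resistant libraries lay below both vehicle libraries. In either direction, 54.4 to 63.1% of all genes did not overlap vehicle in a comparison. The other groups overlapped each other, except that every combination library lay above every resistant one. Its log2 fold change was -1.43 ± 0.269 in mobocertinib, -1.23 ± 0.269 in T-DM1, -1.13 ± 0.269 in the combination and -1.61 ± 0.269 in the resistant nodules (adjusted p from 0.000637 to 0.00676, edgeR). Rfc5 (chr5:117378103-117389047) was likewise higher in both vehicle libraries, with 24.8 and 33.8 CPM in vehicle and 10.6 to 15.7 in the other libraries. Its log2 fold changes were -1.38, -1.12, -1.10 and -1.35, each ± 0.242 (adjusted p from 0.000982 to 0.00482, edgeR). Rfc4 had the largest falls of the role, from -1.47 ± 0.401 in T-DM1 to -2.04 ± 0.404 in the resistant nodules. On TPM, Rfc5 was above vehicle in all 4 comparisons, by 0.12 to 0.32. Pcna and Lig1, the clamp and the ligase that joins Okazaki fragments, did not pass in any comparison. Fen1, the flap nuclease, shares 84.2% of its exon bases with Gm10143 and Tmem258 and is uncertain.

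Rfc3 and Rfc5 were also the 2 members called in the difference of differences, the sum of the combination and vehicle minus the sum of the 2 single drugs, a contrast added after the planned ones were read, in which 12.2% of all genes were called. The values were 1.54 ± 0.364 (adjusted p = 0.0197, edgeR) for Rfc3 and 1.39 ± 0.328 (0.0194) for Rfc5, so that the fall in the combination was smaller than the sum of the falls under each drug. Without vehicle 2 they were 1.27 (adjusted p = 0.101) and 1.05 (0.116), and neither passed.

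Among the nucleotide supply genes Tk1, the thymidine kinase of S phase, and Rrm2, the S-phase subunit of ribonucleotide reductase, fell with Tyms (thymidylate synthase) and Dut (dUTPase) in mobocertinib, the combination and the resistant nodules, 4 of 5 genes each, whereas Rrm1, the constitutive reductase subunit, did not pass in any comparison. In T-DM1 against vehicle only Dut of the 5 passed. Tk1 (chr11:117815526-117826092) was at 18.4 and 17.0 CPM in vehicle, 0.648, 4.21 and 1.28 in mobocertinib, 13.6, 10.1 and 8.21 in T-DM1, 3.45, 0.906 and 2.43 in the combination and 2.55, 1.99 and 1.75 in the resistant nodules. The T-DM1 libraries were below vehicle and above every library of the mobocertinib, combination and resistant groups. Its log2 fold change was -3.10 ± 0.680 (adjusted p = 0.00472, edgeR) in mobocertinib, -2.96 ± 0.677 (0.0055) in the combination, -3.07 ± 0.680 (0.00357) in the resistant nodules and -0.73 ± 0.656 (0.408) in T-DM1. Rrm2 (chr12:24708241-24714146) was at 17.8 and 29.8 CPM in vehicle, 2.09, 4.21 and 2.95 in mobocertinib, 17.1, 8.30 and 5.62 in T-DM1, 4.22, 3.15 and 3.91 in the combination and 6.62, 6.72 and 2.42 in the resistant nodules. Its fall was 2.94 ± 0.544 on the log2 scale in mobocertinib (adjusted p = 0.00188, edgeR), and T-DM1 overlapped the resistant group. Dut, at 68.4 and 66.0 CPM in vehicle, was at 15.5 to 39.3 CPM in all other libraries, with its lowest group mean in the resistant nodules (-1.96 ± 0.336, adjusted p = 0.000729, edgeR).

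Of the genes of chromatin assembly and S-phase control, 0 of 5 passed in mobocertinib or T-DM1 against vehicle, 1 fell in the combination (E2f1, an activating E2F factor) and 2 in the resistant nodules (E2f1 and Chaf1b, a subunit of the histone chaperone CAF-1). Chaf1b (chr16:93883901-93906115) was at 10.8 and 13.5 CPM in vehicle, 8.82, 7.09 and 6.33 in mobocertinib, 12.7, 7.25 and 10.2 in T-DM1, 9.09, 8.03 and 9.06 in the combination and 5.09, 5.69 and 4.01 in the resistant nodules. The 3 resistant libraries were the lowest of all 14, and the log2 fold change against vehicle was -1.30 ± 0.322 (adjusted p = 0.00674, edgeR). Uhrf1 (chr17:56303321-56323486), which binds hemimethylated DNA and recruits the maintenance methyltransferase, was at 9.48 and 2.01 CPM in vehicle, 1.94, 2.55 and 1.32 in mobocertinib, 19.5, 8.48 and 11.9 in T-DM1, 4.55, 4.06 and 2.98 in the combination and 5.82, 3.65 and 2.73 in the resistant nodules. The vehicle libraries were farther apart than any treated group but T-DM1, and no comparison with vehicle passed for Uhrf1. Slbp, the histone mRNA binding protein, lay at 0.16 to 0.60 on the log2 scale against vehicle and did not pass.

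**Figure D3:**
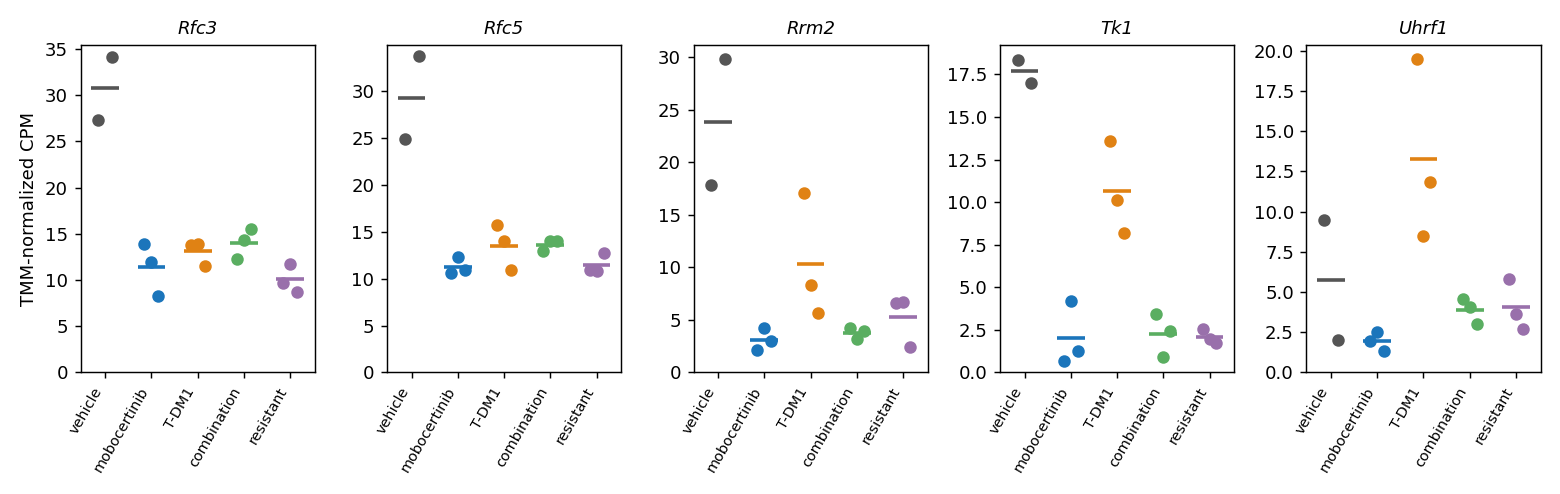
TMM-normalized CPM (vertical axes, from 0) of 5 genes in every library (points) with group means (lines), by group. Rfc3 and Rfc5 are below vehicle in all other groups, whereas in Tk1 and Uhrf1 the 3 T-DM1 libraries lie above all mobocertinib libraries.

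Between the 2 drugs given alone the members leaned one way but few passed any test. In T-DM1 against mobocertinib the log2 fold change was above 0 in 36 of 38 members, with a median of 0.50 beside 0.01 for all genes. Of the members, 19 were higher in every T-DM1 library than in every mobocertinib library, beside 9.64% of all genes, and 1 (Orc6) was lower in every one. The edgeR test called 0 members (0.0279% of all genes were called), with 12 of 38 at an unadjusted p below 0.05 (1714 of 17933 genes). By limma-voom 0 members were called, and by DESeq2 6 were, all higher, beside 1.74% of all genes: Mcm2, Mcm5, Fen1, Rrm2, Tk1 and Uhrf1. The largest value was that of Uhrf1, 2.77 ± 0.572 (adjusted p = 0.157, edgeR), followed by Orc1 at 2.63 ± 0.867 (0.31), Tk1 at 2.37 ± 0.628 (0.226) and Rrm2 at 1.74 ± 0.494 (0.245). Mcm5 was at 1.47 ± 0.349 (0.192). By role the median was 0.82 for licensing and 0.84 for helicase activation, against 0.23 for the clamp and its loader. The small clamp loader subunits were at 0.13 ± 0.228 for Rfc2, 0.20 ± 0.244 for Rfc3, 0.43 ± 0.365 for Rfc4 and 0.26 ± 0.220 for Rfc5, and none passed.

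This lean did not turn with the scaling: the median was 0.42 to 0.51 over the other scalings and tools, 0.43 on TPM and 0.43 on library totals. It was 0.36 to 0.67 when 1 library was left out, the lowest without T-DM1 1. T-DM1 1 was the highest T-DM1 library in 31 of 38 members. That library also had the highest summed markers of B and plasma cells (3646 CPM, where the other libraries ranged up to 1258) and of T cells (91.6 CPM, where others ranged up to 81.6), and their part in its levels was not tested. Without vehicle, the highest group mean was that of T-DM1 in 31 of 38 members, and the lowest was that of the resistant group in 18 and of mobocertinib in 16.

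**Figure D4:**
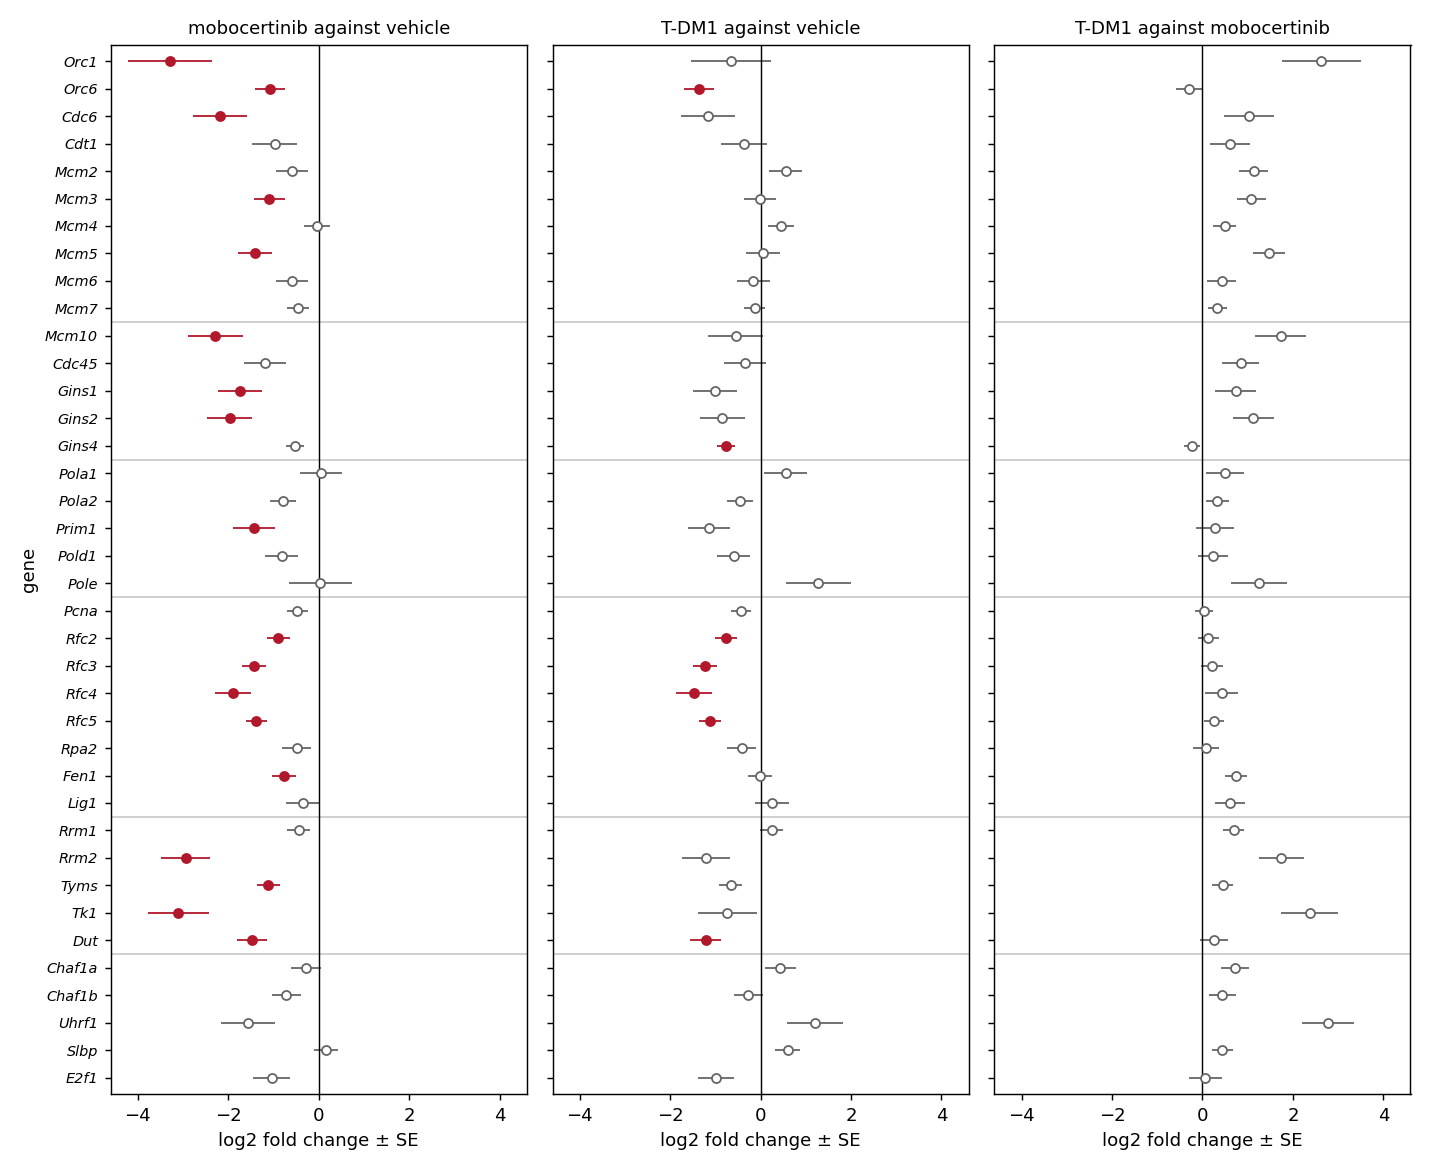
Log2 fold change with SE (horizontal axes) of each of the 38 genes (vertical axis, by role) in 3 comparisons, with filled red points for genes called at an adjusted p below 0.05 and open points for the rest. Mobocertinib against vehicle has 18 filled points, T-DM1 against vehicle 7, and T-DM1 against mobocertinib none, although 36 of its 38 points lie above 0.

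The combination was compared with each drug. Against T-DM1 the members lay lower in 33 of 38 cases (median -0.36, all genes -0.04), and 15 were lower in every combination library than in every T-DM1 library, beside 7.81% of all genes. The edgeR test called 0 (0% of all genes), with 8 members at an unadjusted p below 0.05 (915 of 17933 genes), limma-voom called 0 and DESeq2 called Tk1 alone, beside 0.343% of all genes called lower. Tk1 was at -2.23 ± 0.625 (adjusted p = 0.76, edgeR) and Uhrf1 at -1.78 ± 0.550 (0.817). Without T-DM1 1 the median was -0.20. Against mobocertinib the median was 0.15 (all genes -0.01). Of the members, 4 were higher in every combination library (Mcm2, Rfc5, Fen1 and Uhrf1), beside 3.49% of all genes. The edgeR test called 0 (0% of all genes), with 1 at an unadjusted p below 0.05, and DESeq2 and limma-voom called 0. Mcm2 was at 9.61, 12.4 and 9.38 CPM in mobocertinib and 19.6, 14.9 and 17.2 in the combination, a log2 fold change of 0.72 ± 0.319 (adjusted p = 1, edgeR). Uhrf1 was at 0.995 ± 0.546 (adjusted p = 1).

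Nodules with acquired resistance were compared with nodules on mobocertinib, which asks whether the replication genes were at another level once tumors had escaped the drug. The median was -0.003 (all genes 0.07), with 19 members above and 19 below 0. Of the members, 2 were higher in every resistant library (Pola1 and Uhrf1), beside 4.33% of all genes, and 2 were lower in every one (Gins4 and Chaf1b), beside 5.75%. The edgeR test called 0 members (0.00558% of all genes), with 1 at an unadjusted p below 0.05 (1394 of 17933 genes), and DESeq2 and limma-voom called 0. Gins4 was at 31.5, 35.4 and 28.6 CPM in mobocertinib and 22.5, 26.2 and 23.8 in the resistant nodules (log2 fold change -0.40 ± 0.183, adjusted p = 0.622, edgeR). Chaf1b was at -0.59 ± 0.293 (0.622), Uhrf1 at 1.07 ± 0.547 (0.623) and Rrm2 at 0.77 ± 0.486 (0.651). A p that misses the threshold does not show that the levels were alike.

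With TMM scaling, other genes of the same pathway were called in both directions. In each comparison with vehicle the share that fell was above that of all genes, and the share that rose below it. Of 32 other replication genes, 8 fell and 2 rose in mobocertinib against vehicle, where 16.1% of all genes fell and 16.8% rose. The counts were 10 and 4 in T-DM1 (14.9 and 16.7% of all genes) and 8 and 4 in the combination (17.4 and 17.6%). In the resistant nodules they were 7 and 5 (19 and 22%). With the length and GC correction 6, 8, 6 and 9 fell in that order, and 0 rose in each comparison. The values that follow are those with TMM scaling. Rpa3, the small subunit of the single-strand binding complex, fell by 2.33 ± 0.299 in mobocertinib (adjusted p = 0.00033, edgeR) and Dtymk, thymidylate kinase, by 1.94 ± 0.313 (0.000883), while Rfc1, the large clamp loader subunit, rose by 1.03 ± 0.221 (0.0042) and Dnmt1, the maintenance methyltransferase, by 1.12 ± 0.291 (0.0116). Of 15 other E2F and G1/S regulators, 3 fell and 3 rose in mobocertinib, shares near the 16.1 and 16.8% of all genes. Those that fell were Ccne1 (-2.82 ± 0.602), Ccna2 (-2.63 ± 0.619) and Cdk2 (-1.57 ± 0.272), cyclins E1 and A2 and their kinase. Those that rose were Rb1 (2.33 ± 0.430), Rbl2 (1.21 ± 0.228) and Cdkn1b (0.91 ± 0.277), which restrain entry into S phase. Cdkn1a and Rbl1, restraining genes of the same list, did not pass. Their means in vehicle and mobocertinib were 256 and 375 CPM for Cdkn1a and 14.4 and 12.2 CPM for Rbl1. With the length and GC correction 5 of the 15 fell and 1 rose in mobocertinib. With TMM scaling 2 fell and 3 rose in T-DM1 against vehicle, 3 and 2 in the combination, and 2 and 3 in the resistant nodules.

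The mitosis genes were set beside the members as the next phase of the cycle. Of 22, 16 fell in mobocertinib against vehicle (median -2.49), where 16.1% of all genes fell. In T-DM1 1 fell (0.03, 14.9% of all genes), in the combination 9 (-1.56, 17.4%) and in the resistant nodules 9 (-1.37, 19%). In T-DM1 against mobocertinib their median was 2.49 where that of the members was 0.50. Of the mitosis genes, 22 of 22 were higher in every T-DM1 library, beside 9.64% of all genes. The edgeR test called 1 (Cdc20, at 2.66 ± 0.349, adjusted p = 0.0242), beside 0.0223% of all genes called higher. The difference between both lists was not tested. The mean of log2 CPM over the members, centered gene by gene, was 0.16 to 0.71 in T-DM1 and -0.50 to -0.11 in mobocertinib, and that over the mitosis genes was 1.01 to 1.81 and -1.85 to -0.39.

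**Figure D5:**
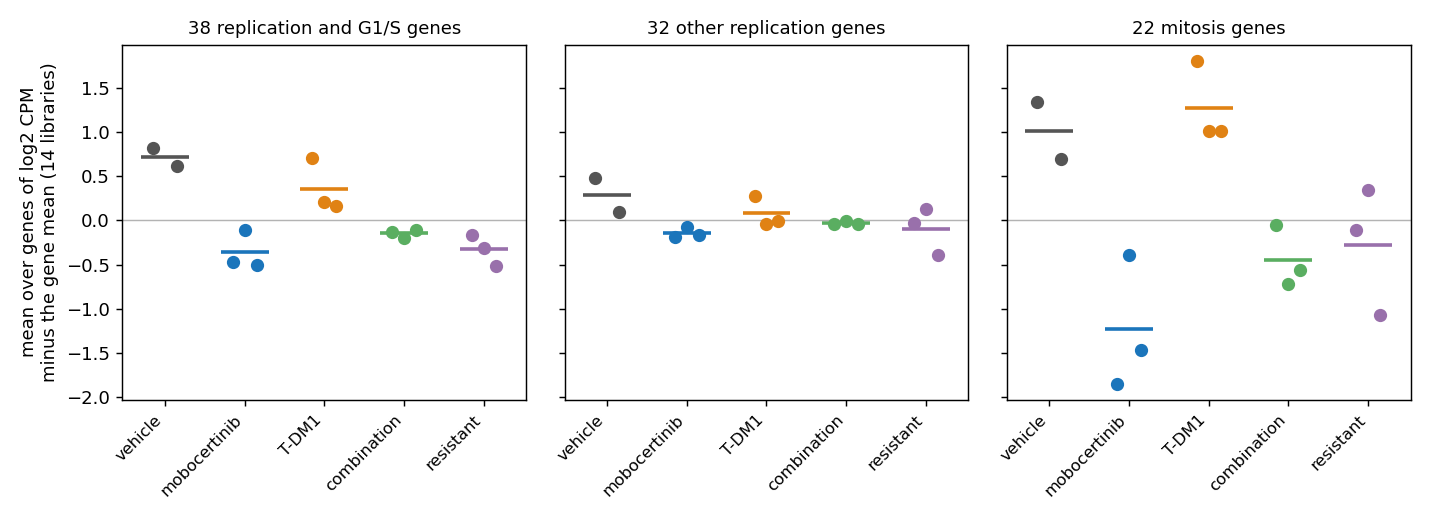
Mean over the genes of a list of log2 CPM, centered gene by gene on the 14 libraries (vertical axis) in each library (points), with group means (lines), for the 38 replication and G1/S genes, 32 other replication genes and 22 mitosis genes. All 3 T-DM1 libraries lie above all 3 mobocertinib libraries in all 3 panels, with the widest gap for the mitosis genes.

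Transcript length moved with the falls against vehicle, and also with changes between the other groups. Spearman's rho of transcript length with log2 fold change was taken across the 38 members, which share the same libraries. Against vehicle it was 0.25 in mobocertinib, 0.51 in T-DM1, 0.33 in the combination and 0.34 in the resistant nodules. After the length and GC correction rho was -0.39, -0.18, -0.30 and -0.28. In T-DM1 against vehicle, 5 of the 12 members with transcripts under 2000 bases fell (median -0.89) and 2 of the 26 longer ones (median -0.25). In mobocertinib the counts were 7 of 12 (-1.25) and 11 of 26 (-0.94). Against mobocertinib rho was 0.38 in T-DM1, 0.42 in the combination and 0.38 in the resistant nodules. After the correction these were 0.39, 0.27 and 0.09. In the combination against T-DM1 rho was -0.26, and -0.36 after it. In T-DM1 against mobocertinib the median was 0.27 for the shorter members and 0.70 for the longer ones. The part of length in that lean was not tested.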

How the data were processed

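RNA sequencing libraries of 14 nodules were analysed from 2 tables. The authors deposited whole-number counts per gene symbol for 55291 symbols and, in the second table, TPM values (per transcript length and library total) for 47606 genes. The submitters' processing notes name STAR, RSEM and the mm10 build. Their versions, the annotation and whether counting was by strand: not given in the sources used here. Columns were matched to samples by title, and replicate numbers only name a library. No pair of libraries within a group was a duplicate: over genes with at least 20 counts, chi-square divided by its degrees of freedom was 87.9 to 504 in the 13 pairs.

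Counts were tested in edgeR 4.0.16 (R 4.3.3) with TMM factors, filterByExpr and the robust quasi-likelihood F-test, in 1 fit of 17933 genes with group means and 9 residual degrees of freedom. A call is an adjusted p below 0.05 (Benjamini-Hochberg over all genes). The SE is the log2 fold change over the root of F. CPM are TMM-normalized. The 8 comparisons set the 4 other groups against vehicle, the combination against either drug alone, and T-DM1 and the resistant group against mobocertinib. The difference of differences was added later. The members, lists and tests were chosen with earlier results of these data known.

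Named members were the 2 of each role with the smallest p over the 5 groups, and in each comparison up to 3 called members per direction, or the 2 smallest p where none was called. Others named in the report were picked after their values were seen.

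Alternatives were upper-quartile or RLE factors, no filter beyond 1 count, DESeq2 1.42.0, limma-voom (limma 3.58.1), limma-trend on log2(TPM + 1), the compared groups only, offsets for transcript length and GC content (GENCODE M21, 17490 genes), and leaving out each library. Library totals alone and a fit without vehicle were added after the data were seen. The test was checked on simulated data with known folds. In mobocertinib against vehicle it recovered 2% of 2-fold and 64% of 4-fold changes. In T-DM1 against mobocertinib these were 8 and 50%, with 4 false calls in each comparison. Most changes of 2-fold would thus be missed. Promoter windows are RefSeq's, and 27 of the 32 members' windows end in 20 bases found in a GENCODE transcript of that gene on its strand.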

Additional observations from a re-analysis of the deposited data

Results flagged for a closer look

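For Rfc3 and Rfc5, 2 small subunits of the clamp loader, the step from T-DM1 to the combination differed from that from vehicle to mobocertinib. By DESeq2 the combination was at 0.08 against T-DM1 and 0.30 against mobocertinib for Rfc3, and at -0.01 and 0.26 for Rfc5. None of these was called. The difference of differences (combination and vehicle together, minus the 2 single drugs) was 1.54 ± 0.364 on the log2 scale for Rfc3 (adjusted p = 0.0197, edgeR) and 1.39 ± 0.328 for Rfc5 (adjusted p = 0.0194). The other 36 members did not pass, so that the share of members called was below the 12.2% of all genes called. Both values were past the threshold with upper-quartile and RLE factors. Neither passed with no low-count filter (adjusted p = 0.0812 and 0.109), on library totals (0.73 and 0.56, adjusted p = 0.157 and 0.235), or without vehicle 2, mobocertinib 3, T-DM1 3, combination 2 or combination 3. With the length and GC correction Rfc3 was at 1.09 (adjusted p = 0.0716) and Rfc5 at 1.88 (0.0268). The contrast rests on the 2 vehicle libraries, whose RNA composition stood apart.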

How the results depend on the processing

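Counts of called members against vehicle held their direction with upper-quartile and RLE factors, DESeq2, limma-voom and the length and GC correction (1 of 26 calls higher in the resistant nodules), and were within 1.5 times of the first count. With no low-count filter, 11 members were called in mobocertinib, 3 in T-DM1, 5 in the combination and 14 in the resistant nodules. With only the 2 groups compared in the fit, 11 were called in mobocertinib and 6 in the resistant nodules. On library totals the counts were 3 in mobocertinib (2 lower and 1 higher), 7 in T-DM1 (0 lower and 7 higher), 5 in the combination (3 and 2) and 7 in the resistant nodules (4 and 3). On TPM they were 13 in mobocertinib (12 higher), 21 in T-DM1 (21 higher), 14 in the combination (14 higher) and 12 in the resistant nodules (11 higher). The cause of these turns was not tested.

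Leaving out 1 library gave 8 to 17 called members in mobocertinib against vehicle (8 without mobocertinib 3), 2 to 7 in T-DM1 (2 without vehicle 2, 4 without T-DM1 3), 8 to 12 in the combination (11 without vehicle 1, 8 without vehicle 2 or combination 3, 9 without combination 1) and 12 to 23 in the resistant nodules (12 without vehicle 2). Without vehicle 1, 3 of the 7 in T-DM1 and 1 of the 18 in the resistant nodules were higher. The count over the 5 groups, 20, was 10 with no filter, 4 on library totals and 6 to 21 without 1 library (6 without vehicle 2, 10 without vehicle 1, 11 without mobocertinib 3 or T-DM1 1, 13 without mobocertinib 2). Among groups other than vehicle, DESeq2 called 6 members in T-DM1 against mobocertinib and 1 in the combination against T-DM1, where 0 were called by each other setting.

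The members' medians turned above 0 on TPM (0.32, 0.85, 0.56 and 0.42 in mobocertinib, T-DM1, the combination and the resistant nodules) and on library totals in T-DM1 (0.36) and the combination (0.046). Of 32 named values against vehicle, 20 turned on TPM. In mobocertinib these were Rfc5 0.12, Gins2 1.10, Mcm5 0.17 and Orc6 0.49. In T-DM1 they were Rfc5 0.23 and Orc6 0.24. In the combination they were Rfc4 0.053, Rfc5 0.32, Rfc3 0.17, Gins2 1.06, Mcm10 0.25, Orc6 0.46, Prim1 0.058 and Pola2 0.83, with Pola2 at 0.086 on library totals as well. In the resistant nodules they were Rfc5 0.12, Gins2 1.15, Rrm2 0.34, Chaf1b 0.0059, Orc6 0.36 and Pola2 0.75. None of the 8 named values in the other comparisons turned in any setting run.

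No paired analysis was possible because the labels carry no replicate numbers that tie libraries of different groups. Members with few counts (Orc1 down to 2, Pole to 7, Mcm10 to 11 and Tk1 to 13 in a library) are the least precise.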
